A study of Mus musculus with 8 samples.

Results

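The muscle center and the muscle ends of the embryonic diaphragm at E14.5 were compared in 3 control sections. The center stands for the band that carries the neuromuscular junctions (NMJ), and the ends for the places where fibers meet tendon at the myotendinous junctions (MTJ). Both regions were drawn by marker scores and not by position, and where they lay is described below. Their members were 504 Visium spots, 252 in the center and 252 at the ends, of 1701 muscle spots and 2338 spots with at least 1000 UMIs (distinct captured molecules) in these sections, and of 12771 spots in the series. Muscle spots had a mean log-normalized level of *Acta1*, *Actn2*, *Des*, *Myl1*, *Mylpf*, *Neb*, *Ryr1*, *Tnnt3* and *Ttn* above the Otsu threshold of their section. The center was the top 15% of them by the averaged z-scores of *Ache*, *Chrna1*, *Chrnd*, *Etv5*, *Musk*, *Prkar1a* and *Ufsp1*, the ends were the top 15% by those of *Col22a1*, *Ankrd1* and *Map3k7cl*, and spots in both sets (0, 1 and 2 in sections 1, 2 and 3) were dropped. The 1194 muscle spots in neither set are called default muscle or middle.

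The series holds 8 Visium sections of mouse diaphragm, formaldehyde fixed, paraffin embedded and cut flat, so that a section shows the costal and crural muscle around the central tendon. A Visium spot is smaller than the distance between spots and covers several cells, so that fewer cells of a type and less RNA per cell cannot be told apart. Control embryos kept at least 1 functional allele each of CaV1.1, the voltage sensor of skeletal muscle, and of β-catenin. Besides the 3 controls at E14.5, 2 controls at E18.5 and the library labelled CaV1.1 -/- at E14.5, from an embryo that should lack this channel in every cell, were used. Sections 1, 2 and 3 held 30618837, 38967220 and 14179161 UMIs. The sections are separate samples in the labels, no litter is named, and the p-values measure only the spread between these sections.

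Each diaphragm fiber is contacted by the phrenic nerve near its middle, where acetylcholine receptors gather under the nerve ending. Agrin from the nerve acts through Lrp4, MuSK and Dok7 to hold the receptors there, and the nuclei beneath the synapse transcribe synaptic genes more than other nuclei of the fiber. At both ends, the fiber anchors through integrins, the dystrophin complex and a specialized matrix to the tendon, which passes its force to the ribs and to the central tendon.

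Acetylcholine receptor genes and genes of the MTJ carry short motifs that muscle factors are known to bind, and 4 promoters are printed as examples. *Chrna1* and *Ankrd1* are genes of the scores, so that the rule itself set their place, whereas *Chrng* and *Thbs4* were tested. Chrna1 and Chrng encode the alpha and the embryonic gamma subunit of the receptor, Ankrd1 a stretch-responsive protein of the sarcomere and Thbs4 a matrix protein of the MTJ. The sequences are the 220 bases before the start of each gene, from RefSeq on GRCm38.p6, which is the build of the probe set, written 5′ to 3′ on the strand of the gene. Capitals mark the E-box CAGCTG, or the MCAT motif CATTCC, which reads GGAATG on the other strand.
Chrna1, chr2:73580339-73580558, minus strand: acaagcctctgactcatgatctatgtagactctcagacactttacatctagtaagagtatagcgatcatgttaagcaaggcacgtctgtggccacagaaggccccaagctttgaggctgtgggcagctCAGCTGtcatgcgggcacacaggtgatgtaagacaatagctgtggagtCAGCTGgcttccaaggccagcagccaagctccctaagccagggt
Chrng, chr1:87205591-87205810, plus strand: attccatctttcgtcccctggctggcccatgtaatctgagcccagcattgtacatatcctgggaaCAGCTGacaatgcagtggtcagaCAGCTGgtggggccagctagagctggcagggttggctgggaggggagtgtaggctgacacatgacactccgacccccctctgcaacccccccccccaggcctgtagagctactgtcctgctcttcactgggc
Ankrd1, chr19:36119845-36120064, minus strand: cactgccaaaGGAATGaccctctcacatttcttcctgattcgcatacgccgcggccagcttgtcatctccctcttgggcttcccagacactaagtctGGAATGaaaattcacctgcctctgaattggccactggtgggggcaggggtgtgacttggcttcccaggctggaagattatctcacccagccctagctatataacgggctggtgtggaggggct
Thbs4, chr13:92794819-92795038, minus strand: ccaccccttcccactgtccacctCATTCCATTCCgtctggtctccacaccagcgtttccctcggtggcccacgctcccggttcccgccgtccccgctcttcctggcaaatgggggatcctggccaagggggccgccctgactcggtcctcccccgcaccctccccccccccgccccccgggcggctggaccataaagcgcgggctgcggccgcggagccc
Both receptor promoters held 2 E-boxes in this stretch and no MCAT motif, whereas the promoters of *Ankrd1* and *Thbs4* held 2 MCAT motifs, which overlap in *Thbs4*, and no E-box. The RefSeq promoter window of the rule gene *Musk*, which lies inside the annotated gene and not before its start, held 1 E-box. These motifs are short and common. In the 250 bases before the start, searched on both strands, 13.0% of all 32851 RefSeq promoters held CAGCTG and 12.6% held CATTCC, and the promoters of genes higher in the center held them in 15.7% and 12.3%, against 13.2% and 12.1% for genes higher at the ends and 12.2% and 10.6% for all genes tested. The N-box CCGGAA, known from synaptic promoters, was held by 14.9% of the promoters of genes higher in the center and 10.3% of those of genes higher at the ends, both below the 21.0% of all genes tested. A match of letters says nothing about whether a factor is bound there.

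*Col22a1* and *Ache* illustrate how the chosen spots looked, as a description of the rule and not as a result. The level of *Ache*, which breaks down acetylcholine in the synaptic cleft, was 213, 184 and 184 CPM (counts scaled to the depth of each sum, as edgeR reports them) in the center of sections 1, 2 and 3, against 53.5, 47.3 and 71.5 CPM at the ends. The level of *Col22a1*, a collagen of the MTJ, was 23.6, 29.1 and 21.6 CPM in the center and 205, 243 and 152 CPM at the ends. The center score was 0.726, 0.765 and 0.580 for the last spot inside the threshold and 0.717, 0.757 and 0.575 for the first spot outside it, and the end score was 0.809, 0.774 and 0.713 inside and 0.782, 0.769 and 0.711 outside, so that both regions were drawn through continuous scores. The 9 muscle genes summed to 29640, 25420 and 24990 CPM in the center and 28190, 25100 and 22740 CPM at the ends, but to 8681, 5636 and 6262 CPM outside muscle, a gap that the rule itself set.

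Center spots ran as broken bands through the muscle, and only in section 1 did most end spots touch a spot outside muscle (78.0%, against 37.6% and 21.2% in sections 2 and 3). Among the muscle neighbors of center spots, 36.6%, 44.5% and 44.9% were center spots in sections 1, 2 and 3, where center spots were 14.9%, 14.9% and 14.6% of the muscle. For the ends, 35.2%, 39.9% and 32.6% of neighbors were end spots, and only 2.64% to 3.77% of the neighbors of either region belonged to the other. The median distance to the nearest spot outside muscle was 200, 265 and 346 µm for the center and 100, 173 and 265 µm for the ends, and 173, 173 and 400 µm for default muscle. By the median, the ends thus lay no nearer to such spots than default muscle in section 2, and in section 3 both center and ends lay nearer than it. Counting the section outline as an edge too, the median distance was 100, 100 and 200 µm for the ends. It was 173, 173 and 265 µm for default muscle and the same for the center. That measure was added after the data were seen. The distance to the nearest spot outside muscle was longer for the center than for the ends in 3 of 3 sections, by 91.1 ± 9.09 µm (SD, n = 3), and the exact permutation test over sections gave p = 0.25, two-sided, the smallest p that 3 sections allow. With 10% instead of 15% of muscle spots it was 85.2 ± 82.4 µm (SD, n = 3; exact permutation p = 0.5). By the mean instead of the median, the members at 15% went the other way in section 3, at 396 µm for the center and 472 µm for the ends. In section 1, the median spot held 26992.5 UMIs in the center and 17329 at the ends, a wider gap than in section 2 (55511 and 48206) and section 3 (23462 and 22514). The part of depth in the results was not tested.

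**Figure D1:**
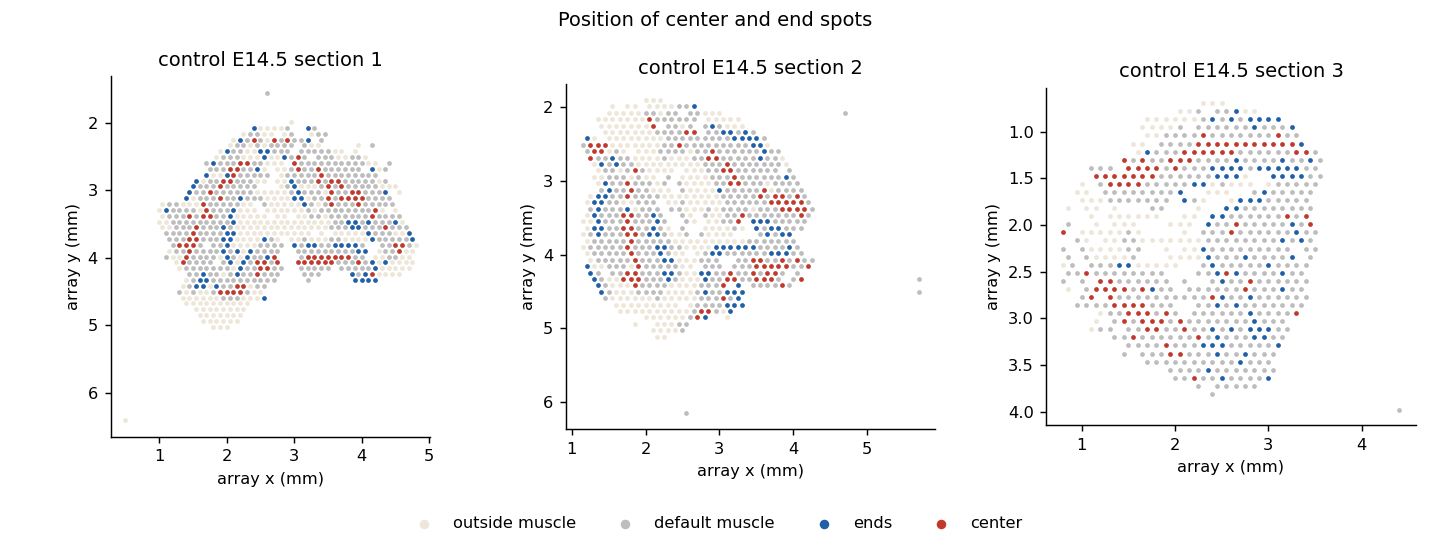
Position of the spots of the 3 control E14.5 sections on the array, with both axes in mm and 1 point per spot, colored as center, ends, default muscle or tissue outside muscle. Center spots lie in broken bands inside the muscle, and end spots line its borders in section 1 but are scattered between border and interior in sections 2 and 3, with 82, 85 and 85 spots of each region in sections 1, 2 and 3.

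The next comparison asked which other genes differed between the center and the ends. UMIs were summed per section and region and tested with edgeR with the section as a block. Of 11597 genes tested, 1212 were higher in the center (10.5%) and 1272 were higher at the ends (11% of the genes tested), together 21.4%, at an adjusted p below 0.05, with the 19 genes of the rule left out. Genes that follow the scores differ partly because the spots were picked by them, so that these counts describe how widely the transcriptome moves with the 10 genes that drew the regions. Scaling to the 9 muscle genes moved the median of all genes by -0.0961 on the log2 scale and gave 675 genes higher in the center and 1970 at the ends, so that 25.5% instead of 48.8% of the calls were higher in the center. Changes of up to about that size are therefore relative to the scaling. Lists of genes were read against these shares, and against the median log2 difference of all genes of -0.0104. The 3 centers lay wholly above or wholly below the 3 ends for 3121 of all genes tested (26.9%). Genes said below to be apart or without overlap between center and ends are to be read beside that share. In what follows, log2 differences are center minus ends, ± is the standard error of the fit and n is 3 sections.

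**Figure D2:**
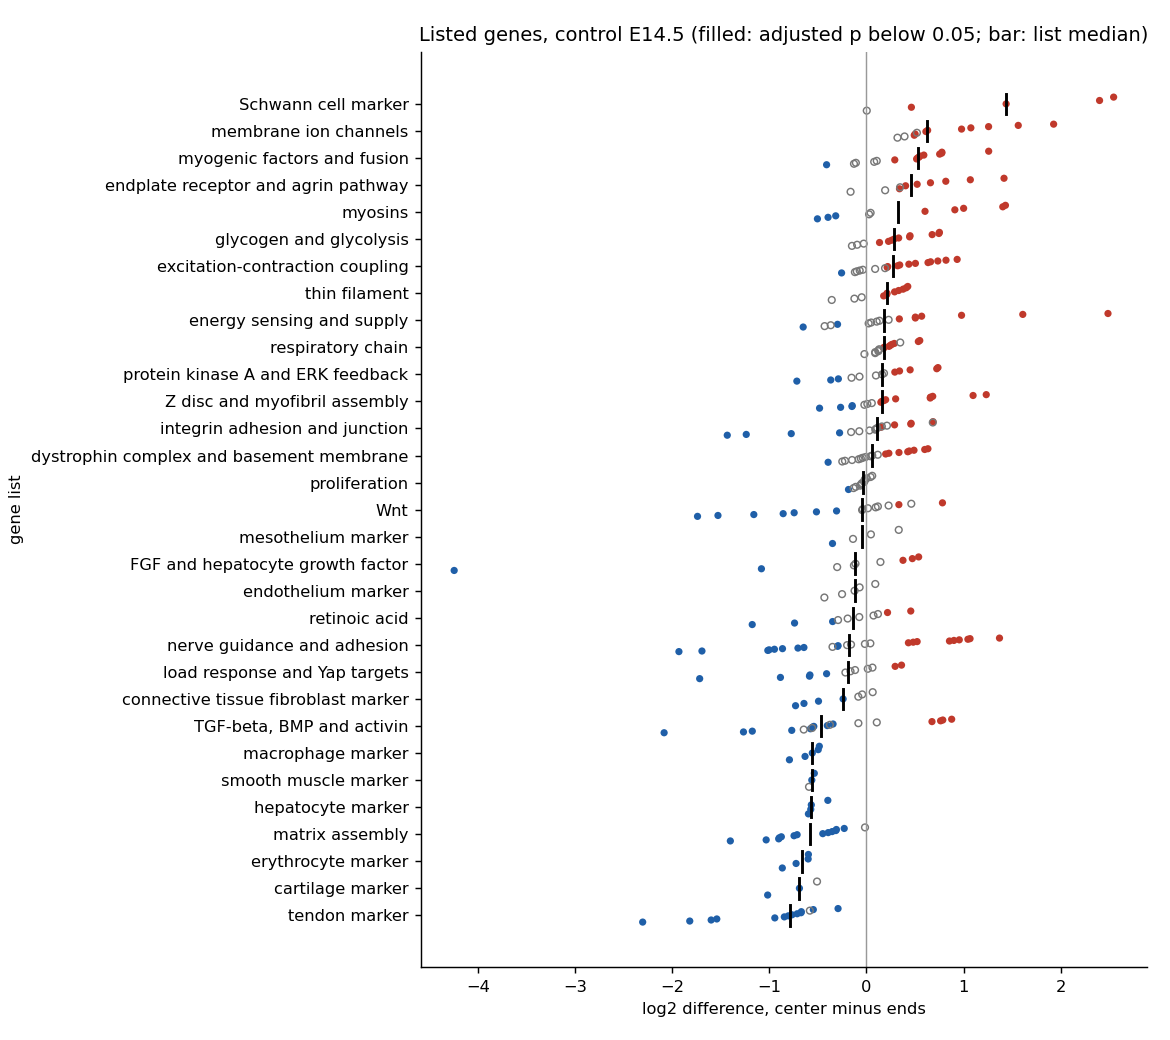
Log2 difference between center and ends for the genes of each list, control E14.5, 1 point per gene, with lists in rows ordered by their median (black bar). Filled points passed an adjusted p of 0.05 (red: higher in the center, blue: higher at the ends), and the Schwann cell list lies at the center side (median 1.44) and the tendon list at the end side (median -0.785).

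Beyond the receptor genes of the rule, 7 of 10 measured genes of the endplate receptor and agrin pathway were higher in the center and none was lower, with a median log2 difference of 0.463. *Colq*, the collagen tail that tethers acetylcholinesterase to the synaptic matrix, was measured at 19.8, 17.9 and 21.6 CPM in the center of sections 1, 2 and 3 and at 8.26, 6.22 and 7.70 CPM at the ends. All 3 centers lay above all 3 ends, with a log2 difference of 1.42 ± 0.20 (adjusted p = 6.82e-07). The level of *Erbb3*, a receptor for neuregulin, was 286, 221 and 224 CPM in the center and 156, 123 and 140 CPM at the ends, again without overlap (0.82 ± 0.06, adjusted p = 2.15e-13). *Ank3*, which encodes the membrane scaffold ankyrin-G, was higher in the center by 0.66 ± 0.07, and *Chrng* by 1.07 ± 0.07, which lies 5.74 kb from the rule gene *Chrnd* on chromosome 1. The agrin receptor *Lrp4* (0.52 ± 0.15), the receptor clustering protein *Rapsn* (0.40 ± 0.10) and the beta subunit *Chrnb1* (0.34 ± 0.07) differed less. The adaptor *Dok7* (0.35 ± 0.14, adjusted p = 0.0712), the ErbB partner *Erbb2* (0.19 ± 0.11) and *Agrn* itself (-0.16 ± 0.10) did not pass the test. Without section 2, *Lrp4* (adjusted p = 0.146) and *Chrnb1* (adjusted p = 0.056) lost their calls, and DESeq2 called neither of them nor *Rapsn* (adjusted p = 0.352, 0.0982 and 0.216).

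Transcripts that mark Schwann cells, the glia that accompany motor axons, were higher in the center. Of 5 measured Schwann cell markers, 4 were higher in the center and none at the ends, with a median of 1.44. *Sox10*, the transcription factor that defines the lineage, gave 24, 30 and 10 UMIs in the center sums and 2, 5 and 2 UMIs in the end sums, which is a ratio of the CPM of 5.91 with a 95% interval of 2.92 to 13.5 for counting error. The adhesion molecule *Cdh19* gave 33, 27 and 6 UMIs in the center and 3, 2 and 5 at the ends, a ratio of 5.48 with an interval of 2.80 to 11.96. *Cdh19* stood apart in sections 1 and 2 and was nearly even in section 3. *Foxd3*, a factor of the neural crest from which Schwann cells derive, was measured at 31.6, 30.2 and 31.0 CPM in the center and at 12.4, 8.37 and 15.9 CPM at the ends, without overlap (1.44 ± 0.17, adjusted p = 1.21e-08). The call of *Cdh19* was not made by DESeq2 (adjusted p = 0.0662). Without section 1, 2 of 4 measured Schwann cell markers were called, without section 2, 2 of 3, and with DESeq2, 2 of 5. Summed over the markers, the level was 81.8, 73.2 and 63.9 CPM in the center, 36.98, 37.7 and 44.2 CPM at the ends and 45.4, 36.9 and 28.5 CPM outside muscle.

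Channels that set the excitability of the fiber were higher in the center. Of 12 measured membrane ion channel genes, 9 were higher in the center and none at the ends, with a median of 0.622. *Kcnj12*, an inward rectifier potassium channel that stabilizes the resting potential, was measured at 53.0, 42.0 and 33.9 CPM in the center and at 16.2, 5.50 and 16.9 CPM at the ends. The groups were apart, with the lowest end value in section 2, and the log2 difference was 1.93 ± 0.18 (adjusted p = 6.39e-11). *Scn4a*, the sodium channel of the muscle action potential, was measured at 89.4, 66.1 and 61.0 CPM in the center and at 28.6, 17.5 and 32.9 CPM at the ends (1.56 ± 0.12, adjusted p = 7.70e-13). The sodium channel subunit *Scn3b* (0.98 ± 0.06), the related rectifier *Kcnj2* (0.61 ± 0.10) and the sulfonylurea receptor *Abcc9* (0.49 ± 0.08) were also higher in the center. The chloride channel *Clcn1* gave few UMIs, 37, 39 and 13 in the center and 13, 13 and 5 at the ends, a ratio of 2.38 with an interval of 1.57 to 3.71, and its call was lost without section 2 (adjusted p = 0.0719) and in DESeq2 (adjusted p = 0.195).

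The machinery that couples excitation to calcium release was also higher in the center, with a smaller median. Of 18 measured genes, 11 were higher in the center and 1 was lower, with a median of 0.27. The larger differences belonged to calcium handling, namely the release channel *Ryr3* (0.93 ± 0.12), the calcium pump *Atp2a1* (0.82 ± 0.06), the calcium buffer *Casq1* (0.74 ± 0.07) and the histidine-rich calcium binding protein *Hrc* (0.66 ± 0.06). *Atp2a1* was measured at 1779.6, 1404 and 1364 CPM in the center and at 1007, 673 and 933 CPM at the ends. The groups did not overlap for any of these 4 genes, beside 26.9% of all genes tested, and their adjusted p was at most 5.36e-08. The gene of the CaV1.1 channel itself, *Cacna1s*, was measured at 19.3, 21.2 and 27.6 CPM in the center and at 20.7, 24.4 and 21.6 CPM at the ends and did not pass the test (-0.04 ± 0.15). With regions drawn by position in edgeR, *Cacna1s* was called higher in the center (0.67, adjusted p = 0.0173). By distance to the muscle edge it was not called (0.21, adjusted p = 0.5135).

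Kinase signaling genes were split between the regions. Of 13 measured genes of protein kinase A and ERK feedback, 5 were higher in the center and 3 at the ends, with a median of 0.161. *Map2k1*, the kinase that activates ERK, was measured at 324, 308 and 262 CPM in the center and at 191, 168 and 187 CPM at the ends (0.74 ± 0.06, adjusted p = 3.69e-12). *Dusp6*, a phosphatase that turns ERK off again, was measured at 175, 168 and 144 CPM in the center and at 98.1, 91.1 and 117 CPM at the ends (0.72 ± 0.08, adjusted p = 1.53e-09). Neither gene overlapped between the regions. The catalytic subunit *Prkaca* was higher in the center by 0.45 ± 0.06, in each section, although its ranges overlapped. *Etv4*, a factor of the same family as the rule gene *Etv5*, went the other way, with 18.46, 17.9 and 15.7 CPM in the center and 31.0, 26.8 and 30.3 CPM at the ends (-0.72 ± 0.15), a call that DESeq2 did not make (adjusted p = 0.0851).

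Regulators of muscle differentiation were mostly higher in the center, and most proliferation genes did not pass the test. Of 15 measured myogenic and fusion genes, 10 were higher in the center and 1 at the ends, with a median of 0.53. *Tead4*, a factor that acts in differentiating myoblasts, was measured at 198, 155 and 176 CPM in the center and at 116, 89.6 and 110 CPM at the ends (0.75 ± 0.07). The MEF2 factors *Mef2d* (0.54 ± 0.08) and *Mef2a* (0.52 ± 0.07) and the late regulator *Myf6* (1.26 ± 0.09) were also higher there without overlap. The progenitor factors *Pax7* (0.08 ± 0.10, but called in the center when regions were drawn by position) and *Pax3* (-0.13 ± 0.20) did not pass the test. Of 12 measured proliferation genes, 1 was called, higher at the ends, and the median was -0.035, with *Mki67* at 440, 466 and 432 CPM in the center and 443, 498 and 459 CPM at the ends.

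Contractile and metabolic genes favored the center, with a few exceptions at the ends. Of 10 measured myosin genes, 5 were higher in the center and 3 at the ends, and of 17 Z disc and assembly genes, 10 and 4. *Myh1*, the fast IIx myosin, was measured at 222, 175 and 193 CPM in the center and at 77.8, 55.2 and 102 CPM at the ends (1.40 ± 0.08), and also higher in the center were *Mylk2*, the kinase of the myosin light chain (1.43 ± 0.14), *Myoz1* of the Z disc (1.23 ± 0.09) and *Myh7b* (0.91 ± 0.07). The titin cap gene *Tcap* was higher at the ends (-0.48 ± 0.09), a call that was lost without section 2 (adjusted p = 0.12) and in DESeq2 (adjusted p = 0.0888). Of 13 glycogen and glycolysis genes, 10 were higher in the center and none at the ends, led by glycogen phosphorylase *Pygm* (0.75 ± 0.06) and phosphoglycerate mutase *Pgam2* (0.75 ± 0.05). Of 15 respiratory chain genes, 8 were higher in the center and none at the ends, led by the muscle cytochrome oxidase subunits *Cox6a2* (0.55 ± 0.05) and *Cox8b* (0.53 ± 0.07). In energy supply, the AMP kinase subunit *Prkaa2* (1.61 ± 0.10) and the mitochondrial creatine kinase *Ckmt2* (0.98 ± 0.10) were higher in the center and the fatty acid carrier *Fabp3* at the ends (-0.65 ± 0.09, with overlap).

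Of 12 measured genes of the load response and of Yap targets, 5 were higher at the ends and 2 in the center, with a median of -0.19, and the matrix gene *Thbs4* of the MTJ was higher at the ends. *Thbs4*, whose promoter is printed above, was measured at 82.3, 146 and 70.8 CPM at the ends of sections 1, 2 and 3 and at 32.4, 42.8 and 42.8 CPM in the center (-1.43 ± 0.11, adjusted p = 3.71e-13). All ends lay above all centers, and section 2 was the highest. *Ccn2*, a secreted matrix protein and a target of the mechanosensitive factor Yap, was measured at 54.4, 38.7 and 33.9 CPM at the ends and at 10.0, 13.9 and 16.2 CPM in the center (-1.72 ± 0.16, adjusted p = 8.90e-11). The related *Ccn1* (-0.89 ± 0.12) and the receptor kinase *Axl* (-0.58 ± 0.08) were also higher at the ends. *Rxrg*, a retinoid receptor, reached 254, 232 and 174 CPM at the ends against 109, 88.6 and 87.6 CPM in the center (-1.24 ± 0.07, adjusted p = 4.27e-17), and the ubiquitin hydrolase *Uchl1* differed by -0.77 ± 0.10. By distance to the muscle edge in place of the scores, *Rxrg* differed by only -0.26 (adjusted p = 0.143).

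Among general adhesion genes, more were called in the center than at the ends. Of 18 measured genes of integrin adhesion and the junction, 5 were higher in the center and 4 at the ends. *Rxrg*, *Uchl1* and *Thbs4*, given above, are on this list and among those higher at the ends. The laminin receptor subunit *Itga6* was higher in the center (0.69 ± 0.11). Of 19 measured genes of the dystrophin complex and basement membrane, 8 were higher in the center and 1, *Sgcd*, at the ends (-0.39 ± 0.06, with overlap). The syntrophin *Sntb1* (0.63 ± 0.08), the dystrobrevin *Dtna* (0.60 ± 0.09), the laminin chain *Lama5* (0.49 ± 0.09) and the laminin receptor *Dag1* (0.43 ± 0.06) led the center, of which *Dag1* was measured at 266, 209 and 236 CPM in the center and at 180, 168 and 179 CPM at the ends. Each of these 4 genes was apart in the 3 sections, beside 26.9% of all genes tested, with an adjusted p of at most 2.44e-05.

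Several secreted signals differed between the regions. *Fgf4*, a fibroblast growth factor ligand, gave 3, 0 and 2 UMIs in the center sums of sections 1, 2 and 3, 29, 49 and 17 in the middle and 39, 36 and 10 at the ends. The 85 UMIs at the ends against 5 in the center correspond to a ratio of the CPM of 20.5, with a 95% interval of 8.44 to 64.7 that covers counting error only. Among its receptors, *Fgfr2* was higher at the ends (-1.08 ± 0.21) and *Fgfr4* (0.54 ± 0.07) and the decoy *Fgfrl1* (0.47 ± 0.05) in the center, and DESeq2 did not call *Fgfr2* (adjusted p = 0.103). Of 9 measured genes of this list, 3 were higher in the center and 2 at the ends.

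Of 18 measured genes of TGF-beta, BMP and activin signaling, 9 were higher at the ends and 4 in the center, with a median of -0.472. *Bmp2*, a BMP ligand, was measured at 23.4, 16.02 and 31.3 CPM at the ends and at 5.54, 4.57 and 5.41 CPM in the center (-2.08 ± 0.21, adjusted p = 4.57e-10). Every end lay far above every center. *Id3* (-0.77 ± 0.08) and *Id1* (-0.54 ± 0.09), which BMP signals are known to induce, the latent TGF-beta binding protein *Ltbp1* (-1.18 ± 0.10), the receptor *Tgfbr2* (-0.58 ± 0.09) and the BMP modulator *Bmper* (-1.27 ± 0.26, adjusted p = 0.1 in DESeq2) were higher at the ends as well. The muscle growth inhibitor *Mstn* and its antagonist *Fst* were both higher in the center. *Mstn* was measured at 111, 78.4 and 65.9 CPM in the center and at 62.0, 44.0 and 44.1 CPM at the ends (0.79 ± 0.09), and *Fst* at 122, 170 and 144 CPM in the center and at 88.8, 68.4 and 87.3 CPM at the ends (0.88 ± 0.09). *Acvr2b*, a receptor of myostatin and activin, was higher in the center (0.68 ± 0.13) and missed the threshold without section 2 (adjusted p = 0.0534) and in DESeq2 (adjusted p = 0.0741).

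Of 16 measured Wnt genes, 7 were higher at the ends and 2 in the center. *Wnt5a*, a ligand of noncanonical Wnt signaling, was measured at 65.4, 113 and 39.0 CPM at the ends and at 17.7, 33.5 and 31.5 CPM in the center (-1.53 ± 0.14). Section 3 showed the smallest gap, and DESeq2 gave an adjusted p of 0.0721. The Wnt modulators *Dkk2* (-1.74 ± 0.17) and *Sfrp1* (-0.86 ± 0.10) were higher at the ends without overlap, whereas the Dkk receptor *Kremen1* was higher in the center (0.78 ± 0.07). Of 10 measured retinoic acid genes, 3 were higher at the ends, among them the carrier *Crabp2* (-0.74 ± 0.09), and 2 in the center.

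Guidance cues for axons were split by region. Of 24 measured genes of nerve guidance and adhesion, 9 were higher in the center and 10 at the ends, beside 10.5% and 11% of all genes tested. *Sema3c*, a secreted semaphorin, was measured at 50.6, 60.2 and 39.5 CPM at the ends and at 11.6, 15.2 and 14.3 CPM in the center (-1.93 ± 0.14, adjusted p = 3.28e-14). *Slit3*, a secreted repellent, was measured at 17.9, 16.7 and 21.0 CPM at the ends and at 5.01, 6.03 and 5.41 CPM in the center (-1.69 ± 0.22, adjusted p = 8.53e-08). Both genes were apart in the 3 sections. Netrin (*Ntn1*, -1.002 ± 0.13), *Sema3a* (-0.95 ± 0.10) and the ephrin receptor *Epha7* (-0.86 ± 0.12) belonged to the same side, but by distance to the muscle edge *Ntn1* differed by -0.10 (adjusted p = 0.708).

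On the center side were *Sema3e* (1.37 ± 0.25), T-cadherin (*Cdh13*, 1.07 ± 0.16), *Slit1* (1.04 ± 0.22, adjusted p = 0.12 in DESeq2), *Sema6b* (0.96 ± 0.08), *Lrtm1* (0.90 ± 0.13) and *Col25a1* (0.86 ± 0.11), a collagen of the muscle membrane that is known to be needed for motor innervation. *Col25a1* was measured at 58.3, 58.4 and 47.7 CPM in the center and at 33.0, 29.9 and 29.8 CPM at the ends, and *Sema6b* at 117, 119 and 94.0 CPM in the center and at 58.5, 56.9 and 58.5 CPM at the ends. The center of each section lay above all ends for both genes.

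Transcripts of tendon and matrix were higher at the ends. Of 14 measured tendon markers, 13 were higher at the ends and none in the center, with a median of -0.785, and of 14 matrix assembly genes, 13 and none, with a median of -0.582. *Tnmd*, the tenomodulin of mature tendon, was measured at 72.6, 90.4 and 106 CPM at the ends and at 27.4, 21.8 and 26.1 CPM in the center (-1.82 ± 0.11, adjusted p = 7.74e-16). *Scx*, the defining factor of tendon cells, was measured at 56.8, 72.4 and 74.4 CPM at the ends and at 39.8, 39.9 and 33.9 CPM in the center (-0.80 ± 0.10). *Mkx*, another tendon factor, gave 19, 39 and 39 UMIs at the ends and 6, 8 and 8 in the center, a ratio of 5.31 with an interval of 3.32 to 8.86. Fibronectin (*Fn1*, -1.03 ± 0.06), *Col12a1* (-1.54 ± 0.07) and the collagen crosslinking enzyme *Lox* (-0.90 ± 0.16) were higher at the ends without overlap.

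Other tissues moved with the same comparison. The 15 tendon markers summed to 18920, 20090 and 20000 CPM at the ends, to 10710, 13090 and 12740 CPM in the center and to 27410, 35390 and 42140 CPM outside muscle. Macrophage markers were higher at the ends in 5 of 5 measured genes, hepatocyte markers in 4 of 4, erythrocyte markers in 4 of 4, fibroblast markers in 4 of 7 and endothelium markers in 0 of 5. Erythrocyte markers summed to 67.8, 4197 and 967 CPM at the ends and to 73.9, 2430 and 641 CPM in the center, far apart between sections. Between 21.2% and 78.0% of end spots touched a spot outside muscle, against 1.18% to 26.8% of center spots and 12.2% to 41.8% of default muscle, and in section 2 the ends (37.6%) were close to default muscle (37.25%). Their part in the results was not tested.

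Outside the lists, the largest differences included several genes known from other striated muscle or from synapses. Higher in the center were the atrial myosin *Myh6* (1.58 ± 0.09), *Ky*, a gene of muscle maintenance (1.51 ± 0.09), *Myzap* (1.49 ± 0.11), the neuropeptide *Cck* (1.40 ± 0.13), *Hoxd8* (1.39 ± 0.11), *Lynx1*, a modulator of nicotinic receptors (1.35 ± 0.11), *Dner* (1.33 ± 0.13), *Mlf1* (1.28 ± 0.12), *Arhgap36*, an inhibitor of protein kinase A (1.17 ± 0.07), *Lmo2* (1.12 ± 0.13), *Cgref1* (1.11 ± 0.11) and *Apobec2* (1.095 ± 0.07). *Arhgap36* was the most abundant of them, at 772, 560 and 627 CPM in the center and 283, 241 and 361 CPM at the ends. *Lynx1* was measured at 77.8, 73.8 and 96.9 CPM in the center and at 38.5, 24.4 and 34.9 CPM at the ends. All 12 were apart in the 3 sections, beside 26.9% of all genes tested. They were picked as the largest changes with the same direction in all sections, which favors such a gap.

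Higher at the ends were the protease *Prss23* (-2.29 ± 0.12), *Nnmt* (-2.25 ± 0.15), asporin of the tendon matrix (*Aspn*, -1.94 ± 0.11), *Abi3bp* (-1.94 ± 0.12), *Fndc1* (-1.90 ± 0.13), the adherens junction gene *Ctnna3* (-1.76 ± 0.08), the connexin gene *Gja5* (-1.59 ± 0.10), *Fgf7* (-1.53 ± 0.11), *Fibin* (-1.52 ± 0.08), *Snx7* (-1.51 ± 0.11), P-cadherin (*Cdh3*, -1.44 ± 0.15) and *Meox1*, a factor of somite derivatives (-1.37 ± 0.11). *Ctnna3* was measured at 196, 222 and 146 CPM at the ends and at 64.1, 56.4 and 49.2 CPM in the center, and *Gja5* at 142, 132 and 95.0 CPM at the ends and at 34.8, 44.9 and 48.7 CPM in the center. All 12, picked in the same way, were apart in the 3 sections, beside 26.9% of all genes tested.

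The default muscle was then set beside both regions. Against the middle, 1098 of 12432 genes were higher in the center (8.83%) and 871 lower (7.01%), together 15.8%, and 470 of 12455 were higher at the ends (3.77%) and 271 lower (2.18%), together 5.95%. Of the 1212 genes higher in the center than at the ends, 857 were also called above the middle in the center, and 231 were called below the middle at the ends. Of the 1272 genes higher at the ends, 402 were called above the middle at the ends, and 634 were called below the middle in the center. By the mean over sections, the middle lay between the other regions for 1132 of the first set (93.4%) and 1128 of the second (88.7%), but it did so in every section for only 635 (52.4%) and 563 (44.3%). These shares follow from the same sums as the calls and are a description.

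*Kcnj12* (1.27 ± 0.11), *Scn4a* (1.14 ± 0.09), *Colq* (0.91 ± 0.13), *Foxd3* (0.80 ± 0.12), *Erbb3* (0.48 ± 0.05) and *Ank3* (0.45 ± 0.05) were higher in the center than in the middle. *Fgf4* (2.09 ± 0.26), *Ccn2* (1.21 ± 0.12), *Sema3c* (1.13 ± 0.11), *Bmp2* (0.89 ± 0.14), *Thbs4* (0.81 ± 0.09) and *Wnt5a* (0.78 ± 0.09) were higher at the ends than in the middle. *Bmp2* (-1.19 ± 0.19) and *Sema3c* (-0.77 ± 0.12) were at the same time lower in the center than in the middle. *Sox10* was 0.87 ± 0.25 above the middle in the center and 1.73 ± 0.42 below it at the ends. Its call against the middle was lost in the center without section 1 or 2 (adjusted p = 0.155 and 0.176) and at the ends without section 2 (adjusted p = 0.175). For *Ccn2*, the difference between center and middle (-0.50 ± 0.14) rested on sections 1 and 2 and was lost without either (adjusted p = 0.215 and 0.205). The call of *Wnt5a* at the ends was lost without section 2 (adjusted p = 0.0844).

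**Figure D3:**
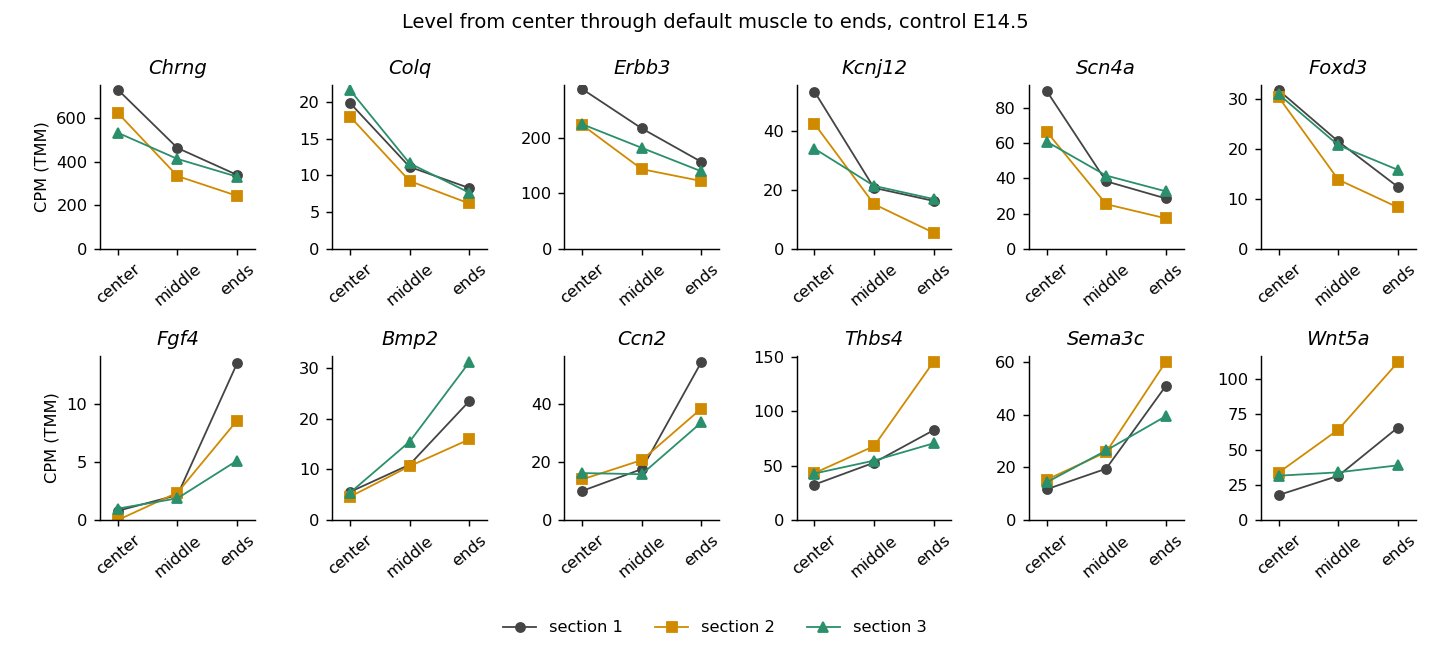
Level in CPM (TMM scaled, linear axis from 0) of 12 genes in the center, the middle and the ends of the 3 control E14.5 sections, with 1 line per section. *Kcnj12* falls from 53.2, 42.3 and 33.9 CPM in the center to 16.2, 5.47 and 16.9 CPM at the ends, whereas *Bmp2* runs from 5.56, 4.61 and 5.41 CPM to 23.5, 15.9 and 31.2 CPM.

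Regions were also drawn by position, without the center and end scores, but within the same muscle spots, which the 9 muscle genes set. When the center was taken as the 15% of muscle spots farthest from tissue outside muscle and the ends as the 15% nearest to it, 795 of 11513 genes were higher in the center (6.91%) and 792 at the ends (6.88%). Regions by position shared part of their spots with the members. In sections 1, 2 and 3, 26 of 82, 23 of 86 and 2 of 87 center spots by position were center spots by score, and 27 of 82, 9 of 86 and 24 of 87 end spots by position were end spots by score, which for the center of section 3 and the ends of section 2 is less than the share of 14.6% to 14.9% that each region had of the muscle. Of the genes called by position, 566 and 535 were among the genes called with the scores, and 12 genes were called in the opposite direction. By position, excitation-contraction coupling genes were higher in the center in 16 of 18 cases, ion channels in 7 of 11, endplate genes in 6 of 10 and tendon markers at the ends in 13 of 14. The 9 muscle genes themselves also leaned to the center by position, from 0.20 for *Des*, which was not called, to 0.62 for *Myl1*. Scaling to these genes was not run for regions by position, and the part of muscle content in these counts was not tested. Position and score diverged for several genes. *Fst* (0.04, adjusted p = 0.849), *Colq* (0.57, adjusted p = 0.139), *Sema3e* (0.19, adjusted p = 0.777), *Slit1* (0.75, adjusted p = 0.0726), *Col25a1* (0.33, adjusted p = 0.126), *Lmo2* (0.36, adjusted p = 0.0986) and *Kcnj2* (0.23, adjusted p = 0.248) lost their calls in the center, and *Etv4* (-0.23, adjusted p = 0.446), *Ctnna3* (-0.24, adjusted p = 0.069), *Bmper* (-0.43, adjusted p = 0.425) and *Sgcd* (-0.08, adjusted p = 0.536) at the ends. *Tcap* (0.01, adjusted p = 0.957) and *Fabp3* (0.42, adjusted p = 0.00292) changed sign, and the progenitor gene *Pax7*, not called by score, was higher in the center by position (0.60, adjusted p = 0.000516). By distance to the muscle edge, a measure added after the data were seen, 14 named genes lost their calls, with an adjusted p from 0.0542 for *Id1* to 0.708 for *Ntn1*, 5 changed sign and 1, *Dok7*, was called (0.48, adjusted p = 0.0481).

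A second set of spots was the muscle spots next to members that were members of neither region. Between neighbors of the center and neighbors of the ends, 426 of 11896 genes were higher on the center side (3.58%) and 423 on the end side (3.56%), of which 393 and 379 had the same call in the members and none the opposite one. The genes of the scores differed between these neighbors too, from 0.34 (*Etv5*) to 1.07 (*Ufsp1*) and from -0.65 (*Ankrd1*) to -1.27 (*Col22a1*). The neighbors were found through the members, so that these shared calls are not independent of the scores. Of the tendon markers, 12 of 14 were higher next to the ends, of the matrix assembly genes 10 of 14, of the excitation-contraction coupling genes 10 of 18 higher next to the center, and of the endplate genes 6 of 10. No Schwann cell marker passed there (0 of 5), with *Foxd3* at 0.49 (adjusted p = 0.0929) and *Sox10* at 0.93 (adjusted p = 0.136). *Gja5* fell from a difference of -1.59 in members to -0.18 in neighbors (adjusted p = 0.207), *Fgf4* had -1.28 (adjusted p = 0.0546) and *Dusp6* 0.14 (adjusted p = 0.193).

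Diaphragm fibers insert toward the central tendon and toward the ribs. Within each section, the end spots were split by their distance to the section outline, at its median, which gave 39, 41 and 42 inner and 43, 44 and 43 outer spots. Of 10441 genes, 106 were higher at the inner ends (1.02%) and 171 at the outer ends (1.64%), together 2.65%, and the median log2 difference, inner minus outer, was 0.00273. *Fmod*, fibromodulin of the tendon matrix, was measured at 140, 171 and 209 CPM at the inner ends and at 43.8, 41.7 and 75.8 CPM at the outer ends (1.75 ± 0.12, adjusted p = 3.60e-13). *Tnmd* was measured at 110, 131 and 153 CPM at the inner and at 56.2, 50.3 and 54.3 CPM at the outer ends (1.27 ± 0.13, adjusted p = 2.77e-09). Both tendon genes were apart in the 3 sections, as were 13.7% of all genes tested between inner and outer ends. *Bmp2* was measured at 46.4, 22.1 and 47.5 CPM at the inner and at 12.9, 10.1 and 13.6 CPM at the outer ends (1.59 ± 0.23, adjusted p = 6.16e-06), and each inner end lay above all outer ends.

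Of 13 measured tendon markers, 5 were higher at the inner and 3 at the outer ends. Also higher at the inner ends were the homeobox gene *Six2* (1.67 ± 0.19), *Adamtsl3* (1.43 ± 0.14), the protease *Htra1* (1.38 ± 0.17) and *Prss35* (1.17 ± 0.14). The matrix protein tenascin-C (*Tnc*) was measured at 214, 211 and 234 CPM at the inner and at 457, 818 and 377 CPM at the outer ends (-1.34 ± 0.12). *Wnt5a* was measured at 27.0, 38.5 and 22.3 CPM at the inner and at 85.1, 196 and 60.0 CPM at the outer ends (-2.04 ± 0.15, adjusted p = 3.49e-12), and the Wnt binding protein *Sfrp2* differed by -1.65 ± 0.15. *Col25a1*, which was higher in the center than at the ends as a whole, was measured at 9.71, 16.9 and 20.3 CPM at the inner and at 44.9, 44.8 and 41.9 CPM at the outer ends (-1.47 ± 0.21, adjusted p = 3.71e-06). Inner and outer ends were apart for each of these genes, and all of them kept their call without any single section, but DESeq2 called neither *Sfrp2* (adjusted p = 0.0814) nor *Tnc* (adjusted p = 0.138).

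Several other differences rested on section 2, which had the widest gaps. Without it, the calls were lost for *Pamr1* (-2.31 ± 0.23, adjusted p = 0.0909), *Tgfbi* (-1.72 ± 0.19, 0.0833), *Chsy3* (-1.70 ± 0.21, 0.139), *Dkk2* (-1.65 ± 0.23, 0.352), *S100a6* (-1.50 ± 0.18, 0.079), *Adamts1* (-1.35 ± 0.22, 0.331) and *Thbs4* (-1.25 ± 0.18, 0.73), all higher at the outer ends, and for *Mkx* (1.39 ± 0.34, 0.588), *Car2* (1.37 ± 0.19, 0.951), *Ntn1* (1.37 ± 0.21, 0.331), *Ackr4* (1.17 ± 0.18, 0.331) and *Scx* (0.48 ± 0.14, 0.8), higher at the inner ends, where the second value is the adjusted p without section 2. *Thbs4*, for example, was measured at 71.2, 58.7 and 62.0 CPM at the inner and 89.2, 245 and 83.7 CPM at the outer ends. Without section 2, 9 genes were higher at the inner and 12 at the outer ends in all. Hepatocyte and erythrocyte markers were higher at the inner ends in 4 of 4 genes each, with *Alb* at 0, 802 and 111 CPM at the inner and 9.80, 247 and 95.0 CPM at the outer ends. In section 1, the median inner spot held 10431 UMIs and the median outer spot 30452. Their part in the result was not tested.

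**Figure D4:**
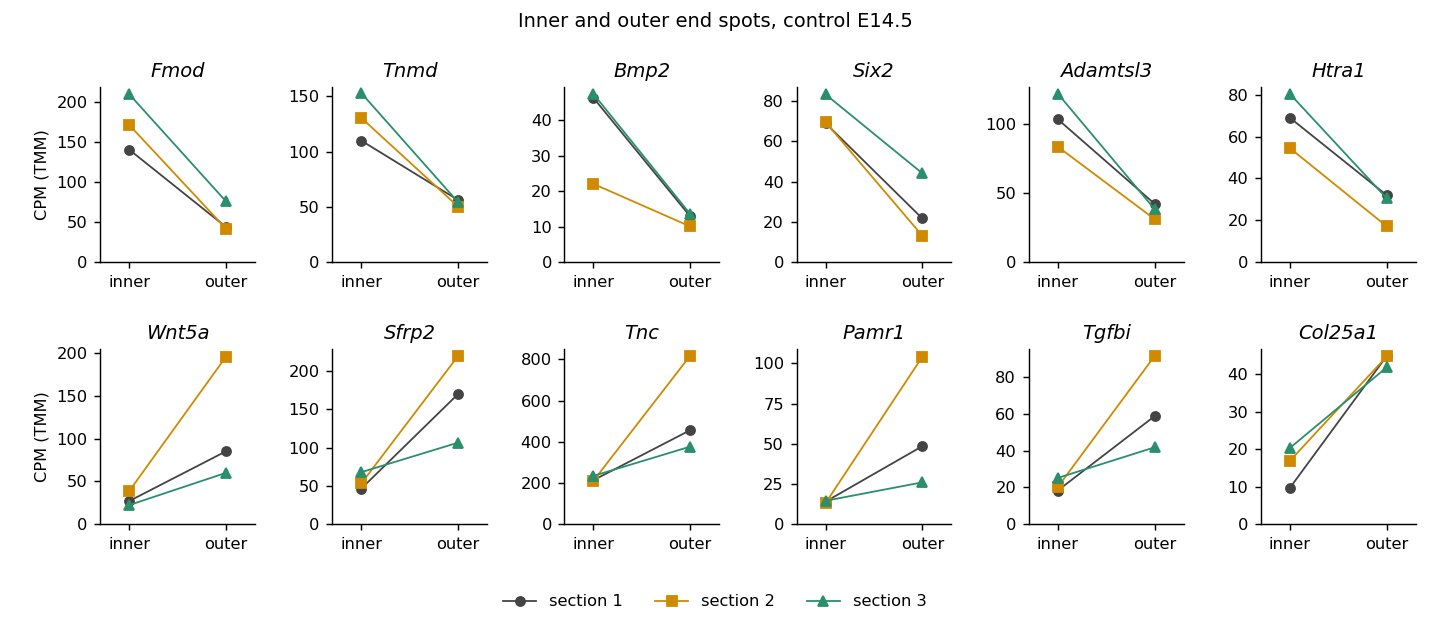
Level in CPM (TMM scaled, linear axis from 0) of 12 genes at the inner and outer ends of the 3 control E14.5 sections, with 1 line per section. *Fmod*, *Tnmd*, *Bmp2*, *Six2*, *Adamtsl3* and *Htra1* are higher at the inner ends and the other 6 genes at the outer ends in each section, with the steepest line in section 2 for *Pamr1* (13.2 to 104 CPM).

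The difference between center and ends was then compared with that of the 2 control sections at E18.5, drawn by the same rule, with 345 and 261 spots in each region after 119 and 69 spots in both were dropped. Of 12604 genes, the difference was larger at E18.5 for 439 (3.48%) and smaller for 345 (2.74%), together 6.22%, signed as center minus ends. The endplate genes outside the rule did not pass this test in 11 of 11 cases, with interaction values of 0.32 ± 0.14 for *Chrng* (adjusted p = 0.204), -0.33 ± 0.26 for *Colq* and -0.02 ± 0.11 for *Erbb3*. Center minus ends, *Erbb3* differed by 0.88, 0.88 and 0.70 in the sections at E14.5 and by 0.71 and 0.93 at E18.5. Its level in the center was 246, 191 and 193 CPM at E14.5 and 60.1 and 66.4 CPM at E18.5, on the scale of this fit.

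Lists that were higher in the center at E14.5 moved in both directions. The difference was smaller at E18.5 for 7 of 16 myogenic and fusion genes and 6 of 18 excitation-contraction coupling genes and larger for none of them, larger for 4 and smaller for 6 of 11 myosins, larger for 3 and smaller for 2 of 14 ion channels, and larger for 3 and smaller for none of 13 genes of protein kinase A and ERK feedback. *Scn3b* differed by 0.87, 1.06 and 1.08 at E14.5 and by 2.03 and 2.31 at E18.5 (interaction 1.15 ± 0.11, adjusted p = 7.38e-07). The interaction was 2.25 ± 0.19 for the potassium channel subunit *Kcne1l*, 1.58 ± 0.14 for *Cd24a*, 0.96 ± 0.10 for *Map2k1* and 0.84 ± 0.12 for *Dusp6*. *Etv4* changed side, with differences of -0.74, -0.55 and -0.92 at E14.5 and 0.79 and 0.51 at E18.5 (1.36 ± 0.19, adjusted p = 0.000114), as did *Fam131a* (1.57 ± 0.18), at 6.57 to 9.33 CPM in the centers of E14.5 and 201 and 200 CPM at E18.5.

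*Fst* and *Myh1* turned from the center to the ends. *Fst* differed by 0.46, 1.34 and 0.74 at E14.5 and by -1.07 and -1.41 at E18.5 (-2.14 ± 0.22, adjusted p = 1.97e-06), and *Myh1* by 1.52, 1.69 and 0.94 and by -0.68 and -0.78 (-2.14 ± 0.13, adjusted p = 2.16e-09). The stages did not overlap for either gene, but how many of all genes tested lie apart between stages is not given here. *Hoxd8* lost its center bias, with 0.02 and -0.05 at E18.5 (-1.42 ± 0.16). *Myh6* had an interaction of -1.87 ± 0.35, but its E18.5 sections went in opposite directions (-1.34 and 0.97), and the call was lost without the first of them (adjusted p = 0.34) and in DESeq2 (adjusted p = 0.629). *Eef1a2*, *Agt* and *Smtnl1*, which were also among the largest interactions, gave few UMIs at E14.5, and no fold is given for them. *Eef1a2*, the elongation factor of mature muscle, gave 0 UMIs in each center sum and 2, 5 and 1 at the ends at E14.5, against 4060 and 4344 in the centers at E18.5.

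Most genes of the tendon and signaling lists did not pass this test. Center minus ends, the difference was smaller at E18.5 for 5 and larger for 1 of 15 tendon markers, larger for 4 and smaller for 1 of 17 Wnt genes, larger for 3 and smaller for 2 of 18 genes of TGF-beta, BMP and activin signaling, and larger for 4 and smaller for 2 of 25 nerve guidance genes. *Tnmd* differed by -1.40, -2.01 and -1.99 at E14.5 and by -3.82 and -4.20 at E18.5 (-2.21 ± 0.17, adjusted p = 4.34e-08), and *Fmod* (-1.48 ± 0.15) and, outside the tendon list, *Uchl1* (-2.06 ± 0.14) moved the same way. *Ecrg4* (-2.21 ± 0.18), the microtubule protein gene *Map1a* (-1.86 ± 0.13) and *Olfml2b* (-1.68 ± 0.13), which differed little at E14.5, were higher at the ends at E18.5. *Sema3c* differed by -2.11, -1.95 and -1.44 at E14.5 and by -0.51 and -0.27 at E18.5 (1.52 ± 0.17, adjusted p = 4.81e-06). *Prss23* (1.85 ± 0.17), *Gja5* (2.03 ± 0.25), *Dkk2* (1.57 ± 0.27) and *Wnt5a* (1.55 ± 0.22) also lost contrast, of which DESeq2 did not call *Gja5* (adjusted p = 0.121), *Dkk2* (adjusted p = 0.068) and *Wnt5a* (adjusted p = 0.521). Macrophage and erythrocyte markers were higher at the ends at E14.5, with medians of -0.558 and -0.662. Their signed difference was higher at E18.5 in 4 of 5 and 4 of 6 genes, a shift toward the center, with median interactions of 0.724 and 0.868. Their part in the result was not tested.

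**Figure D5:**
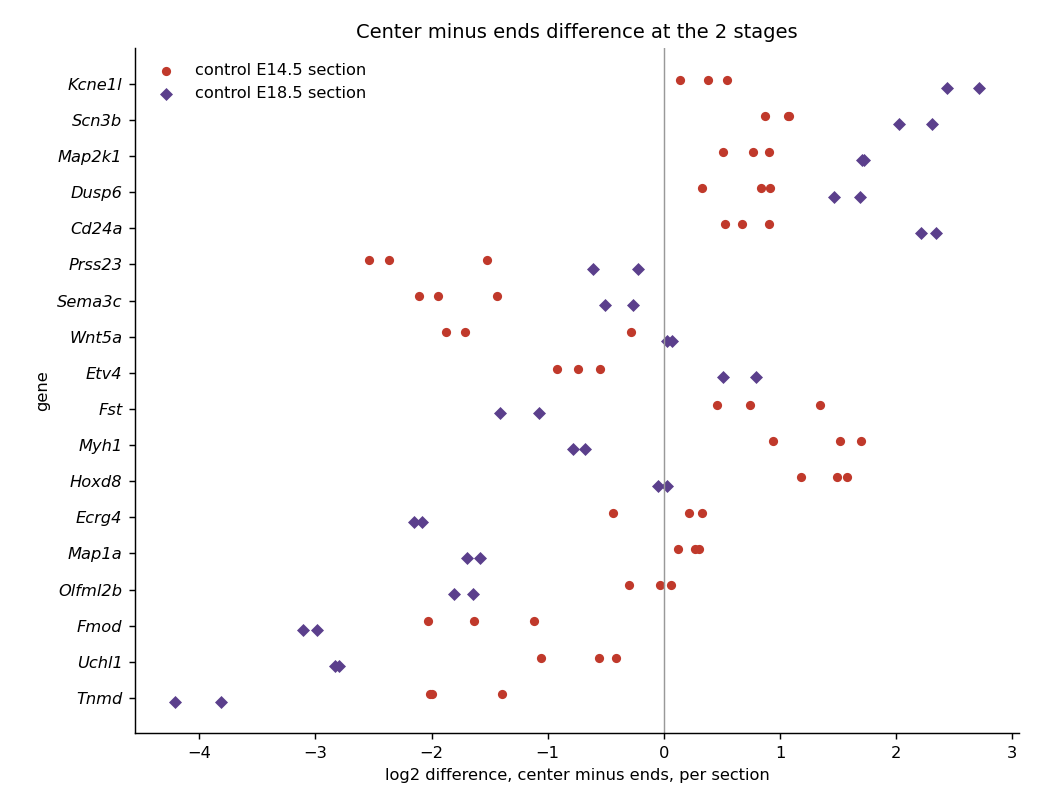
Log2 difference, center minus ends, of 18 genes in each of the 3 control E14.5 sections (circles) and 2 control E18.5 sections (diamonds), with 0 marking equal levels. *Tnmd*, *Uchl1* and *Fmod* move further to the end side at E18.5, whereas *Fst* and *Myh1* cross 0 from the center side (0.46 to 1.34 and 0.94 to 1.69) to the end side.

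The library labelled CaV1.1 -/- at E14.5 was compared in the same way, again signed as center minus ends. It had 71 spots in each region and no replicate, so that the fit assumes that it varies like the controls. *Cacna1s*, the targeted gene, was measured at 19.4 CPM in its center and 20.8 CPM at its ends, against 19.2, 21.2 and 27.6 CPM and 20.7, 24.2 and 21.5 CPM in the controls. The place of the probe relative to the disrupted part of the gene is not given in the sources used here, so that this level does not check the label. Of 12414 genes, the difference between center and ends was larger than in controls for 29 (0.234%) and smaller for 19 (0.153%), together 0.387%. None of the 10 measured endplate genes passed, with an interaction of -0.05 ± 0.14 for *Chrng* (adjusted p = 0.961), which was measured at 564 CPM in the center and 277 CPM at the ends of this library. *Scn4a* (0.31 ± 0.30), *Kcnj12* (-0.32 ± 0.45) and *Sema3c* (0.32 ± 0.26) did not pass either.

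Over 15 tendon markers, the median interaction, signed as center minus ends, was 0.465 in this library, against 0.024 for all genes tested. Tendon markers were higher at the ends in controls (median -0.785), so that this shift was toward the center. Among the myogenic, contractile, coupling and metabolic lists, the median ran from -0.346 for thin filament genes to 0.019 for respiratory chain genes. Members of the thin filament, myogenic and myosin lists were among the genes called with a smaller difference. Some tendon markers were among those called with a larger one. The next gene, *Thbs4*, is not on the tendon list. *Thbs4* was measured at 13.0 CPM, against 82.3, 145 and 70.7 CPM at the ends of the controls, and at 10.8 CPM in the center, and its interaction of 1.15 ± 0.40 did not pass (adjusted p = 0.306). *Tnmd* was measured at 9.77 CPM at the ends and 4.68 CPM in the center (0.76 ± 0.47, adjusted p = 0.704). A single section cannot tell these levels from variation between embryos, and the levels of *Thbs4* and *Tnmd* were not tested.

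With a single mutant section, the number of genes that passed does not show how many differ. *Tpbg* was measured at 141 CPM at the ends of the library labelled CaV1.1 -/- and at 37.9 CPM in its center, against 38.2, 38.4 and 33.8 CPM and 21.6, 20.8 and 24.6 CPM in controls (-1.12 ± 0.20, adjusted p = 0.0016). The semaphorin receptor *Nrp2* (-0.86 ± 0.19), *Prrx1* of limb and trunk mesenchyme (-1.05 ± 0.17), the opioid precursor *Penk* (-1.12 ± 0.19) and *Gpr63* (-0.88 ± 0.18) also shifted to the ends, and *2310002L09Rik* (-0.81 ± 0.16) lost its center bias, with 0.02 against 0.89, 0.94 and 0.52 in controls. Shifted to the center were *Car2* (1.32 ± 0.20), *Trf* (1.31 ± 0.20), *Alpk2* (1.15 ± 0.25), the metallothionein *Mt2* (1.05 ± 0.18), *Cadm1* (0.94 ± 0.20) and *Frem2* (0.88 ± 0.14). Hepatocyte markers shifted the same way in 4 of 4 genes and erythrocyte markers in 3 of 6, with *Alb* at 263 CPM in the center and 123 CPM at the ends of this library, and their part in the shift of *Car2*, *Trf* and *Mt2* was not tested. Without control section 2, *Car2*, *Alpk2*, *Mt2*, *Cadm1*, *Penk*, *Gpr63*, *Nrp2* and *2310002L09Rik* lost their calls (adjusted p from 0.0538 for *Alpk2* to 0.678 for *Mt2*), and without the section as a block no gene was called.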

How the data were processed

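Diaphragm sections were read with probe-based Visium spatial transcriptomics for formaldehyde-fixed tissue. The authors made the deposited counts with Space Ranger on mm10. The methods name version 2.0.1, whereas the file headers of control E14.5 sections 1 and 2 and of the library labelled CaV1.1 -/- at E14.5 name 2.0.0. The counts are UMIs per spot and gene for 19465 genes, not normalized. The deposited scores of spatial autocorrelation per gene (Moran's I) were left out, as were spot-level tests, since spots are not replicates. Of the listed genes, 14 have no probe rows in the files used here, among them *Etv1*, *Myod1* and *Ldha*.

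Spots with fewer than 1000 UMIs were dropped, and counts were scaled to 10000 per spot and log-transformed for the scores. UMIs were summed per section and region (1901736 to 4848463 in center and ends at E14.5) and tested with edgeR 4.0.16 in R 4.3.3 (quasi-likelihood F test after filterByExpr and TMM, p adjusted by Benjamini-Hochberg with a threshold of 0.05, 2 residual degrees of freedom for center against ends), with the section as a block, because the regions of a section come from the same tissue. The deviations of center and ends from their region means correlated across genes at 0.523, 0.510 and 0.183 in sections 1, 2 and 3. The stage and genotype differences were interaction terms. DESeq2 1.42.0 was an alternative. Distances were compared with an exact permutation test. Intervals for low counts are 95% and cover counting error only. On simulated counts for center against ends with 11486 genes, 98.0% of genes changed 2-fold and 48.0% of those changed 1.25-fold were recovered, and 13 of 174 calls were false. These counts varied independently between genes, with the dispersions of the same fit, so that this share is not an error rate of the real calls.

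The members and lists were chosen with earlier results of these data known. Named genes are members of the lists. Outside them they are the 12 largest changes in each direction, or 6 for the inner and outer ends and the interactions. The latter were called genes whose log2 CPM averaged 5 or more and whose direction was the same in all sections. For the interactions, the last condition was instead that differences of E14.5 control sections did not overlap those of the other group. Some genes that the rule would name are not reported here. Array positions shared by the sections (246 by all 3) carry no identity of cells. Promoters came from RefSeq.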

Additional observations from a re-analysis of the deposited data

Results flagged for a closer look

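The center minus ends difference at E18.5 departed from that at E14.5, tested as an interaction in edgeR, for the 22 named genes that follow. The difference is signed here and below, so that larger means a shift toward the center and smaller a shift toward the ends. It was larger for *Kcne1l* (2.25), *Gja5* (2.03), *Prss23* (1.85), *Cd24a* (1.58), *Fam131a* (1.57), *Dkk2* (1.57), *Wnt5a* (1.55), *Sema3c* (1.52), *Etv4* (1.36), *Scn3b* (1.15), *Map2k1* (0.96) and *Dusp6* (0.84). It was smaller for *Ecrg4* (-2.21), *Tnmd* (-2.21), *Fst* (-2.14), *Myh1* (-2.14), *Uchl1* (-2.06), *Myh6* (-1.87), *Map1a* (-1.86), *Olfml2b* (-1.68), *Fmod* (-1.48) and *Hoxd8* (-1.42). The adjusted p was between 2.16e-09 for *Myh1* and 0.00168 for *Myh6*.

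The difference in the library labelled CaV1.1 -/- departed from that of the E14.5 controls, by the same kind of test and with a single mutant section, for 12 named genes. It was larger for *Car2* (1.32), *Trf* (1.31), *Alpk2* (1.15), *Mt2* (1.05), *Cadm1* (0.94) and *Frem2* (0.88). It was smaller for *Penk* (-1.12), *Tpbg* (-1.12), *Prrx1* (-1.05), *Gpr63* (-0.88), *Nrp2* (-0.86) and *2310002L09Rik* (-0.81). The adjusted p was between 0.000292 for *Car2* and 0.0251 for *Alpk2*.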

How the results depend on the processing

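Numbers of genes called are given as higher and lower. Without the section as a block, which ignores the pairing of regions within a section, center against ends gave 575 and 644, center against middle 73 and 44, ends against middle 41 and 1, inner against outer ends 20 and 66, the stage difference 34 and 34, and the genotype difference 0 and 0, where 436 genes had an unadjusted p below 0.05. With DESeq2, the first 5 of these gave 408 and 338, 400 and 201, 138 and 54, 14 and 16, and 76 and 69. Leaving out 1 section each gave 561 to 1359 and 584 to 1424 for center against ends, 518 to 1263 and 342 to 1064 for center against middle, 83 to 681 and 27 to 386 for ends against middle, 9 to 255 and 12 to 320 for inner against outer ends, 132 to 469 and 105 to 492 for the stage difference, and 6 to 83 and 5 to 79 for the genotype difference. In each of these 6 comparisons, the lowest numbers were without control E14.5 section 2, the most deeply sequenced of the E14.5 controls. For center against ends, scaling to the 9 muscle genes gave 675 and 1970, regions by position 795 and 792, neighbors of members 426 and 423, and the upper part of the muscle score 766 and 810. Regions by distance to the muscle edge, chosen after seeing the data, gave 827 and 929. No gene called by the scores was called in the opposite direction under these alternatives, except 12 by position and 14 by distance to the edge. By distance to the edge, *Tcap* (0.49), *Fabp3* (0.43), *Sgcd* (0.068), *Sema3e* (-0.016) and *Col25a1* (-0.20) changed sign, as *Tcap* (0.015) and *Fabp3* (0.42) did by position. List medians changed sign for proliferation (0.000687) and for FGF and hepatocyte growth factor (0.103) without section 2 (range over the sections left out -0.0777 to 0.000687 and -0.205 to 0.103), for the latter in neighbors (0.103), and for the dystrophin complex under muscle scaling (-0.0442). Of 2275 values of named genes under alternatives, 2096 kept direction and side of the threshold, 166 lost the call, 6 gained it and 7 changed sign. The center against ends values of *Cacna1s* are not among these. The shallowest region sum of 1901736 UMIs limits genes with few counts, such as *Sox10* and *Fgf4*.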
